A study of Mus musculus with 5 samples.

Results

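The D-type cyclin genes Ccnd1, Ccnd2 and Ccnd3, the kinase genes Cdk4 and Cdk6, the CDK inhibitor genes Cdkn1a, Cdkn1b, Cdkn2c and Cdkn2d, and the retinoblastoma gene Rb1 were followed in germinal centre B cells. Every probe set that the platform annotation assigns to 1 of these 10 genes was taken, which gave 27 of the 45101 probe sets on the array, for 10 of its 18193 named genes. A probe set is a group of short oligonucleotides on an Affymetrix array that together give 1 signal. No probe set with several gene symbols (0) named a member. After removal of dim probe sets, 24 of the 27 were tested, among 22200 tested in all.

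Splenic germinal centre B cells were sorted by flow cytometry from 12-week-old C57BL/6 mice which had been immunized with sheep erythrocytes and were at day 7 of the response, and each sample was hybridized to 1 single-colour array. The WT group (n = 3) held eGFP-negative cells of mice with Cg1-Cre alone. The REL group (n = 2) held eGFP-positive cells of littermates with relfl/fl and Cg1-Cre, in which Cre can delete Rel, which encodes c-Rel of the NF-kB family. Both groups thus carried Cg1-Cre, a Cre recombinase driven from the immunoglobulin gamma-1 constant region and active in B cells that respond to antigen. The groups differed in sorted eGFP status as well as in genotype. The labels do not say whether arrays came from separate animals or from pools, so the p-values cover variation among these 5 arrays alone, and that variation may be technical.

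Cells commit to DNA replication in G1 when D-type cyclins, induced by growth signals, bind CDK4 or CDK6 and phosphorylate the retinoblastoma protein, which then releases E2F transcription factors. INK4 inhibitors such as p18INK4c (Cdkn2c) and p19INK4d (Cdkn2d) bind CDK4 and CDK6 themselves, whereas the CIP/KIP inhibitors p21 (Cdkn1a) and p27 (Cdkn1b) bind whole cyclin-CDK complexes. In germinal centres cyclin D3 is the D-type cyclin known to drive the divisions of dark zone cells. Cyclin D2 is best known from the response of resting mature B cells to antigen receptor signals.

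The arrays were on a common scale, with a 2% trimmed mean signal of 500 on each and median signals of 30.1 to 54.6. The single Rel probe set read 492, 134 and 206 in WT against 18.6 and 85.2 in REL (−2.12, SE 0.75, limma adjusted p = 0.485), and the labels do not say which part of the gene is removed. All 12 germinal centre B cell marker genes on the array were measured above the filter, and their summed signal was 67485 to 81234 in WT and 69770 and 78480 in REL. Rgs13 had both REL arrays below every WT array (4514 and 3321 against 4960 to 6058). No marker of this list had both above. Among 15 macrophage and monocyte markers, 14 were higher in REL by the mean log2 signal. Both REL arrays were above every WT array for 12 of the 15, against 10.4% of all probe sets tested. Adgre1 went the other way, with both REL arrays below every WT array (120 and 116 against 154 to 435). The summed signal of these markers was 1311 to 2444 in WT and 8607 and 7278 in REL, so the REL arrays stood apart in most markers of another cell type. Mpeg1 alone read 1002, 674 and 648 in WT and 1211 and 2293 in REL. Of 7 T cell markers on the array, 3 were tested (Cd2, Cd247 and Cd8a), and Cd3d and Cd4 were under the filter level on every array. Cd247 read 307, 16.3 and 95.3 in WT against 630 and 168 in REL, and no T cell marker had both REL arrays outside the WT range on the same side. For RNA integrity, Actb control signals from the 3′ end exceeded those from the 5′ end 1.58, 1.73 and 2.45 times in WT, and 1.64 and 1.73 times in REL. For Gapdh these ratios were 1.43, 1.51 and 1.71 in WT, and 1.42 and 1.57 in REL. WT replicate 3 had the highest ratio of both controls. In RNA from sorted bulk cells, fewer cells of a type and less RNA per cell cannot be told apart.

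No member passed the test. With limma on log2(signal + 16) and Benjamini-Hochberg adjustment over the 22200 probe sets, 0 of the 24 member probe sets had an adjusted p under 0.05, and over all probe sets 0 did (0%). At an unadjusted p under 0.05 there were 3 member probe sets, 1 each of Ccnd2, Ccnd3 and Cdkn1b, against 1822 of all probe sets (8.21%). A fit on the brightest probe set of each gene called 1 of 12082 genes (0.00828%), and that gene, Vcam1, is not a member. Differences below are REL minus WT on the log2(signal + 16) scale, so those of dim probe sets are understated.

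**Figure D1:**
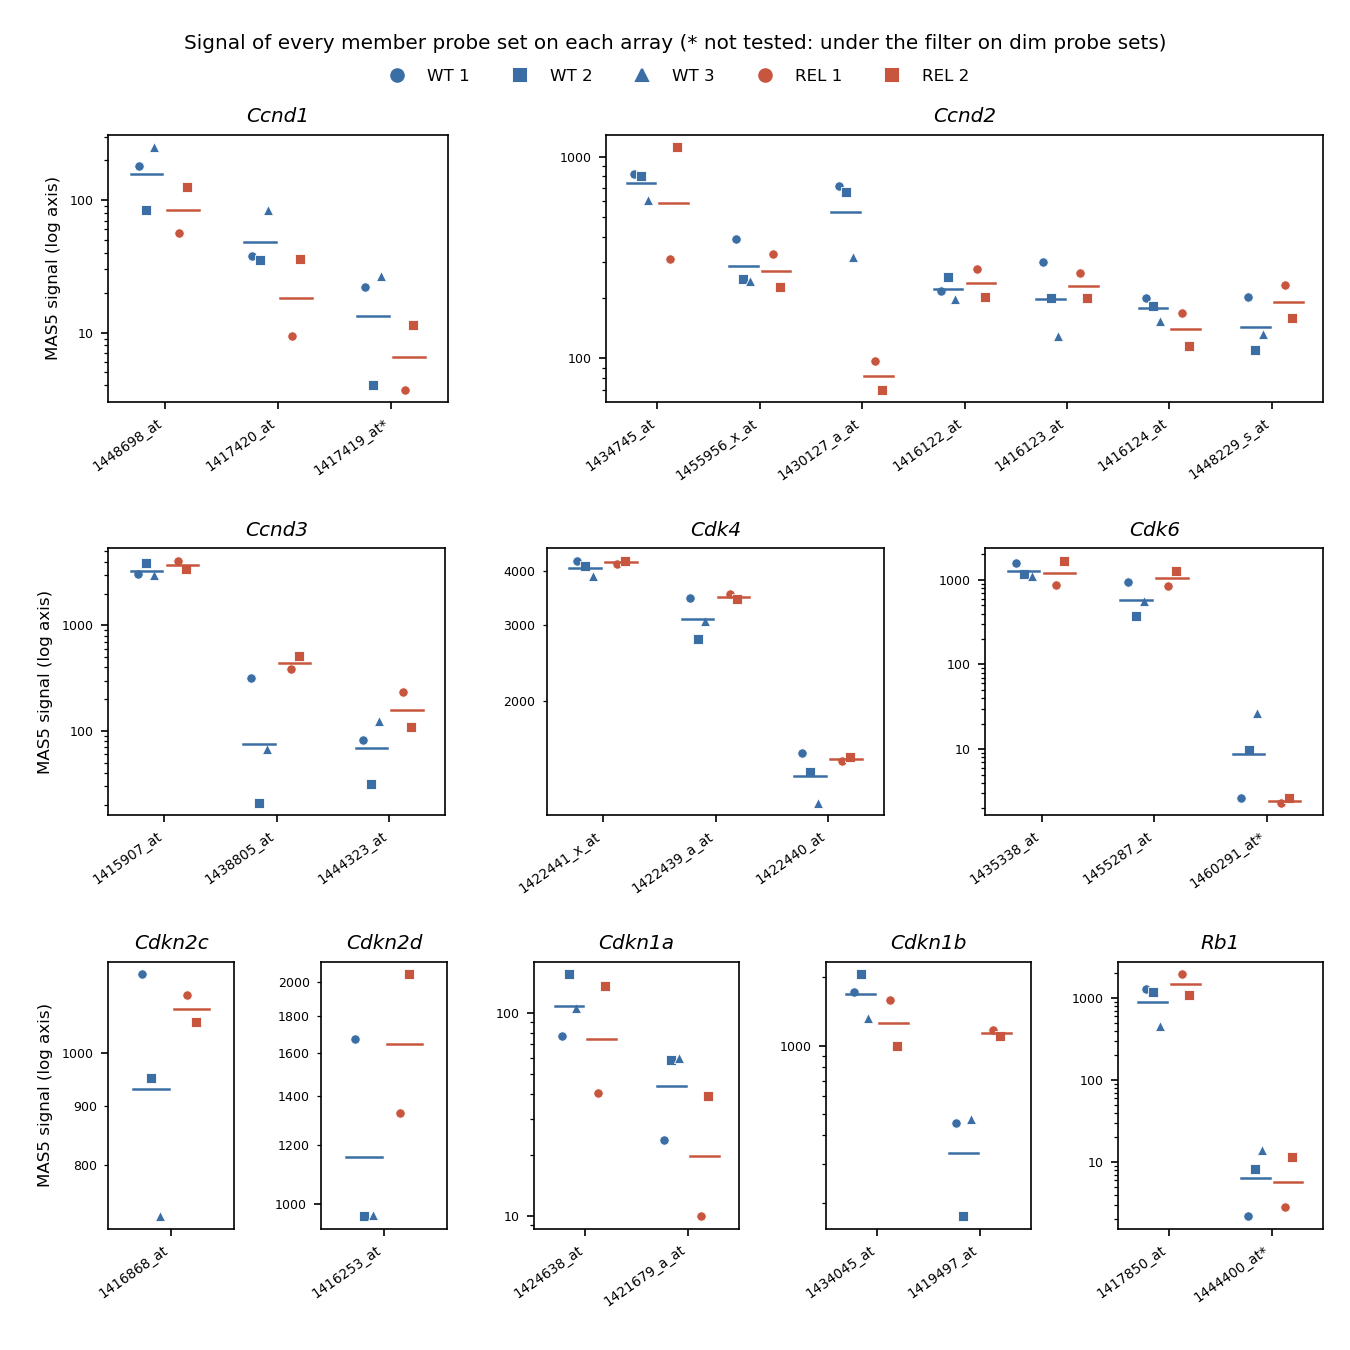
MAS5 signal (log axis) of all 27 member probe sets on the 3 WT (blue) and 2 REL (red) arrays, with marker shapes for replicates and lines for the mean of log2 signals; asterisks mark the 3 probe sets not tested. The REL arrays lie apart from all WT arrays for Ccnd2 1430127_a_at (96.5 and 70.0 against 318 to 712), Ccnd3 1438805_at and Cdkn1b 1419497_at, while the 3 Cdk4 probe sets overlap closely.

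Rel, the gene that Cre can delete in the REL group, encodes a DNA-binding factor. The sequence upstream of the members' start sites was therefore searched for short motifs on both strands. RefSeq windows of 250 bases before the start site (build GRCm38.p6) were at hand for 7 of the 10 genes, 10 windows in all, among 32851 windows of all genes. Ccnd1, Ccnd2 and Rb1 had no window, so the motif counts do not cover them. The kappaB consensus, the sequence class that NF-kB dimers bind, was found in 0 of the 10 windows, and 7.25% of all windows hold it. The E2F letters TTTCCCGC, TTTCGCGC, TTTGCCGC or TTTGGCGC were found in 0 of the 10, against 1.86% of all. The FOXO letters TGTTTAC were in 1 (3.17% of all), the Sp1 letters GGGCGG in 7 (32.7%) and the E-box CACGTG, which MYC and related factors bind, in 2 (6.02%). The windows of 3 genes are shown: Cdk4, the gene with the smallest standard errors, with its E-boxes in capitals; Ccnd3, the cyclin of germinal centre divisions, with its FOXO letters in capitals; and Cdkn1b, an inhibitor gene of which 1 probe set lay apart in REL, with its Sp1 letters in capitals. They lie at chr10:127063285-127063534, chr17:47504801-47505050 and chr6:134920151-134920400, all on the plus strand. Ccnd3 had another window, at chr17:47593217-47593466, which is not shown and held no FOXO letters.
Cdk4 upstream window: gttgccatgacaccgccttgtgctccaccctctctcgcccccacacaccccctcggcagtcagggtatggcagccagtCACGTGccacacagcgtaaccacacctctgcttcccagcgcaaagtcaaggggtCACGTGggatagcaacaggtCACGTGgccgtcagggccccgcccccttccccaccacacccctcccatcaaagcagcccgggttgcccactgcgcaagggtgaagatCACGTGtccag
Ccnd3 upstream window: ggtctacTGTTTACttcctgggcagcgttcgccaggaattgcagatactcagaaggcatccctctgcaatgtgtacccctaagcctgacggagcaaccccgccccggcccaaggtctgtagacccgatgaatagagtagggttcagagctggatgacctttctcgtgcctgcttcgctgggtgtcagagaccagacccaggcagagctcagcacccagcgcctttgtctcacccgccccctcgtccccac
Cdkn1b upstream window: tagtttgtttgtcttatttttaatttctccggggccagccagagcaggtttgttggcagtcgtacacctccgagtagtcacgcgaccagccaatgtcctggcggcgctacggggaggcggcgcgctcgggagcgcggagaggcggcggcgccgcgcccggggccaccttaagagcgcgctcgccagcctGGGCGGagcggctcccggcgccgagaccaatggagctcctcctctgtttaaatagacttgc
The Cdk4 window held 4 E-boxes, a number that 7 of all windows (0.0213%) reach or exceed. The E-box binder gene Myc read 381, 227 and 134 in WT while REL read 514 and 322, with overlapping groups (0.80, SE 0.58, limma adjusted p = 0.775). A match of letters is a description and not a shown binding site.

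Ccnd3, which encodes the cyclin of germinal centre divisions, was measured by 3 probe sets, all of them tested and all with a higher mean in REL. Its brightest probe set, 1415907_at, had WT signals of 3083, 3862 and 3019, against 4104 and 3429 in REL. REL replicate 1 was the highest array and REL replicate 2 lay inside the WT range. The difference was 0.18 (SE 0.21, 95% interval −0.28 to 0.64, limma adjusted p = 0.873). Probe set 1438805_at gave signals of 316, 20.9 and 67.1 in WT, compared with 389 and 508 in REL. No REL array fell within the WT range, yet WT replicate 1 was close to them and the WT arrays were far apart. Its difference was 2.20 (SE 0.86, adjusted p = 0.546 by limma, unadjusted p = 0.0301). Without WT replicate 1 that difference was 3.06, and without WT replicate 2 it was 1.47. For 1444323_at the signals were 82.0, 31.8 and 125 (WT) and 235 and 108 (REL), and the groups overlapped (1.02, SE 0.69, limma adjusted p = 0.756).

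Ccnd2, the gene of the other D-type cyclin of lymphocytes, was measured by 7 probe sets, and 1 of them lay apart from the other 6. Probe set 1430127_a_at read 712, 664 and 318 in WT while REL read 96.5 and 70.0. The REL arrays were the lowest, and the difference was −2.48 (SE 0.56, 95% interval −3.74 to −1.22), a 5.58-fold lower level. It had the smallest p among the members (unadjusted p = 0.00147), and its limma adjusted p was 0.332. The suffix a marks a probe set that the manufacturer expects to match several transcripts of 1 gene.

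None of the other 6 Ccnd2 probe sets had separate groups, and their differences ran from −0.31 to 0.38. Probe set 1434745_at, the brightest, had WT signals of 819, 800 and 609, against 310 and 1115 in REL. Here the REL arrays lay on opposite sides of the WT range (−0.31, SE 0.52, limma adjusted p = 0.932). Without REL replicate 1 its difference was 0.59, and without REL replicate 2 it was −1.21. Probe set 1416122_at gave signals of 216, 252 and 196 in WT, compared with 279 and 201 in REL (0.10, SE 0.53). The difference of 1416123_at was 0.19 (SE 0.58), that of 1416124_at −0.31 (SE 0.56), that of 1448229_s_at 0.38 (SE 0.58) and that of 1455956_x_at −0.06 (SE 0.52). The last of these turned to 0.11 under median centring. The Ccnd2 probe sets as a group therefore gave no common direction, with 3 above 0 and 4 below.

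The split among probe sets of 1 gene can be read as a ratio within each array, where array-wide scaling cancels but for the added 16. For Ccnd2, log2 of 1430127_a_at over 1434745_at was −0.20, −0.26 and −0.90 (WT) and −1.53 and −3.72 (REL). Both REL arrays were below WT, and they differed from each other by more than the WT arrays did. For Cdkn1b, 1419497_at over 1434045_at was −1.90, −3.45 and −1.47 (WT) and −0.45 and 0.14 (REL), again without overlap. The ratio of the Cdk6 probe sets 1455287_at and 1435338_at was −0.74, −1.61 and −0.96 (WT) and −0.01 and −0.40 (REL). That of the Ccnd3 probe sets 1438805_at and 1415907_at overlapped, with −3.22, −6.72 and −5.19 (WT) and −3.35 and −2.72 (REL). These 4 pairs were chosen after their values were seen and were given no test.

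**Figure D2:**
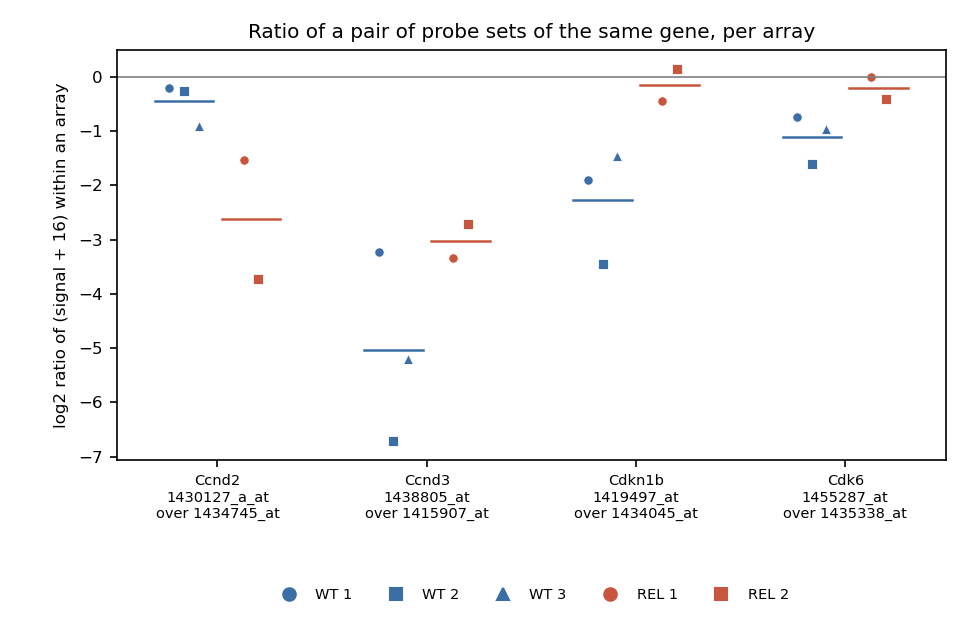
The log2 ratio of (signal + 16) between a pair of probe sets of the same gene, per array, for Ccnd2, Ccnd3, Cdkn1b and Cdk6; blue points are WT, red points REL, and lines are group means. The Ccnd2 ratio is lower on both REL arrays (−1.53 and −3.72) than on any WT array (−0.90 to −0.20), the Cdkn1b and Cdk6 ratios are higher, and the Ccnd3 ratio overlaps.

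Ccnd1, whose product cyclin D1 is the D-type cyclin of many non-lymphoid cells, had 3 probe sets. Its brightest probe set, 1448698_at, read 180, 84.5 and 251 in WT while REL read 56.7 and 126. REL replicate 1 was the lowest array and REL replicate 2 lay inside the WT range, so the groups overlapped (−0.77, SE 0.67, limma adjusted p = 0.817). Probe set 1417420_at had WT signals of 37.8, 35.4 and 84.4, against 9.36 and 36.1 in REL (−0.84, SE 0.59). Its REL mean of 22.7 was under the filter level of 23.1, so it entered the test through its WT signals. The remaining probe set, 1417419_at, had signals of 4.01 to 26.9 on the 5 arrays and was not tested. For both tested probe sets REL replicate 2 lay inside the WT range.

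The smallest standard errors among the tested members, 0.17 and 0.20, were those of 2 probe sets of the kinase gene Cdk4. Probe set 1422441_x_at gave signals of 4209, 4097 and 3888 in WT, compared with 4138 and 4219 in REL. The groups overlapped, and the difference was 0.04 (SE 0.17, 95% interval −0.34 to 0.42, limma adjusted p = 0.977). Probe set 1422439_a_at read 3467, 2779 and 3064 in WT while REL read 3533 and 3435, a difference of 0.17 (SE 0.20, interval −0.27 to 0.61). For 1422440_at the signals were 1522, 1376 and 1168 (WT) and 1461 and 1491 (REL), with a difference of 0.13 (SE 0.27, interval −0.48 to 0.74). A change of 1 log2 unit, in either direction, lay outside all 3 intervals.

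Cdk6, the other partner of D-type cyclins, had 2 tested probe sets. Probe set 1455287_at had WT signals of 951, 371 and 568, against 854 and 1274 in REL. REL replicate 1 lay inside the WT range, and the difference was 0.81 (SE 0.45, limma adjusted p = 0.691). Probe set 1435338_at gave signals of 1598, 1169 and 1122 in WT, compared with 861 and 1691 in REL, so that the REL arrays lay on opposite sides of WT. Its difference was −0.08 (SE 0.36) and turned to 0.09 under median centring of the arrays. The probe set 1460291_at had signals of 2.31 to 26.4 on the 5 arrays and was not tested.

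The INK4 inhibitor genes had 1 probe set each. Cdkn2c, which encodes p18INK4c, known for its need in plasma cell differentiation, read 1171, 951 and 721 in WT while REL read 1123 and 1063. Both REL arrays were inside the WT range (0.23, SE 0.33, limma adjusted p = 0.917). Cdkn2d, which encodes p19INK4d, had WT signals of 1676, 961 and 966, against 1328 and 2051 in REL. Here 1 REL array was inside the WT range and the other above it (0.50, SE 0.35, limma adjusted p = 0.764).

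The CIP/KIP gene Cdkn1b encodes p27, an inhibitor that holds resting lymphocytes in G1, and its 2 probe sets differed in direction. Probe set 1419497_at gave signals of 452, 175 and 471 in WT, compared with 1167 and 1104 in REL. Both REL arrays were above every WT array and close to each other. The difference was 1.71 (SE 0.50, 95% interval 0.60 to 2.82), a 3.27-fold higher level, with an unadjusted p of 0.00662 and a limma adjusted p of 0.407. Probe set 1434045_at read 1733, 2074 and 1329 in WT while REL read 1594 and 998, with overlapping groups and a difference of −0.41 (SE 0.32, limma adjusted p = 0.797). Macrophage markers were high on the same REL arrays as 1419497_at and Ccnd3 1438805_at, and their part in those results was not tested.

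Cdkn1a encodes p21, an inhibitor induced by p53 after DNA damage, and had 2 tested probe sets. Probe set 1424638_at had WT signals of 76.8, 156 and 105, against 40.5 and 136 in REL. REL replicate 1 was the lowest array and REL replicate 2 lay inside the WT range (−0.43, SE 0.66, limma adjusted p = 0.925). Without REL replicate 1 the difference was 0.29, and without REL replicate 2 it was −1.14. Probe set 1421679_a_at, with signals of 23.6, 58.8 and 60.02 (WT) and 9.94 and 39.2 (REL), showed the same order of the REL arrays (−0.69, SE 0.59).

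Rb1, the gene for the retinoblastoma protein on which these kinases act, had 1 tested probe set. Probe set 1417850_at gave signals of 1308, 1178 and 463 in WT, compared with 1975 and 1096 in REL. REL replicate 2 lay inside the WT range, WT replicate 3 was the lowest array, and the difference was 0.71 (SE 0.48, limma adjusted p = 0.756). Without WT replicate 3 it was 0.24. The other probe set, 1444400_at, had signals of 2.17 to 13.8 on the 5 arrays and was not tested.

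**Figure D3:**
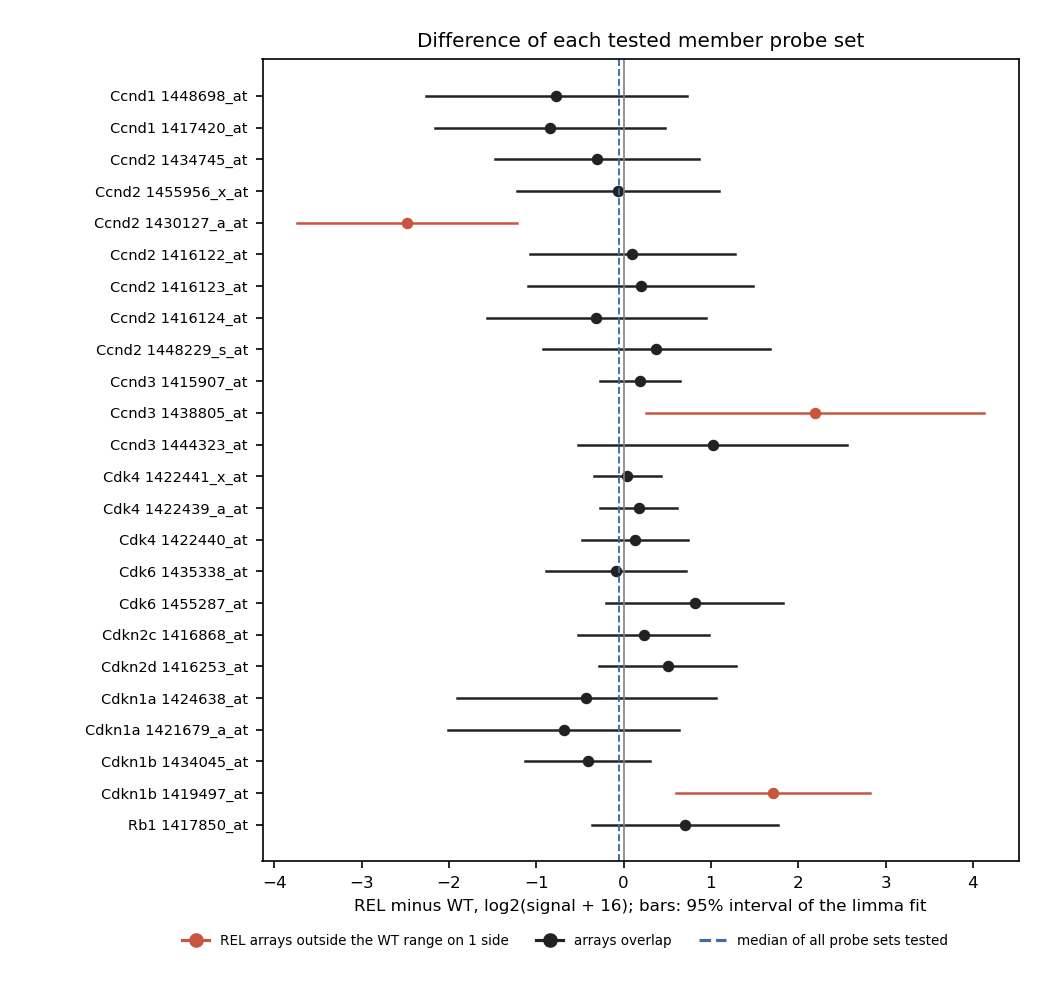
REL minus WT on the log2(signal + 16) scale for the 24 tested member probe sets, with 95% intervals of the limma fit; red marks the 3 probe sets whose REL arrays lie all above or all below WT, and the dashed line is the median of all probe sets tested (−0.05). The intervals of Cdk4 are narrow and include 0, while those of Ccnd2 1430127_a_at, Ccnd3 1438805_at and Cdkn1b 1419497_at do not include 0 before adjustment.

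Over the 24 tested probe sets the median difference was 0.11, against −0.05 over all 22200. Of the members 14 were above 0 and 10 below (58.3% above, against 45.6% of all probe sets). Under median centring, which moved the median of all probe sets to 0.12, the split was 16 and 8 (66.7% above, against 59.9%). Among members 2 probe sets had both REL arrays above every WT array, as 10.4% of all probe sets did. The 1 member with both REL arrays below WT compares with 13.5% of all probe sets. Members lay above 0 at an unadjusted p under 0.05 in 2 cases (background 3.65%) and below 0 in 1 (background 4.56%). As shares of the members these are 8.33% and 4.17%, over 24 probe sets of which several report the same gene. The REL arrays differed from each other by 1 log2 unit or more for 5 member probe sets (20.8%) and for 28.8% of all probe sets. REL replicate 1 lay below the WT range for 7 members (29.2%, against 28.8% of all) and above it for 8 (33.3%, against 29.5%). REL replicate 2 lay below it for 4 (16.7%, against 35.03%) and above it for 7 (29.2%, against 24.9%).

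Other genes of the G1 to S step were described by the brightest tested probe set of each, in lists drawn up from general knowledge of the pathway. None passed the test in either direction (0 called by limma in each list, 0% of all probe sets), and over all genes tested the median difference was −0.07. Of all genes, 3.1% were higher and 4.76% lower at an unadjusted p under 0.05, while 9.53% had both REL arrays above WT and 14.3% had both below. In the lists 4 genes were lower at that level and 0 higher. They were Mybl2, 1 of 10 pocket proteins and DREAM complex partners, and Cdkn3, 1 of 2 other CDK inhibitors tested. The others were Prim1 and Mcm6, 2 of 24 G1/S targets of E2F, and the remaining lists held none. Median centring moved the median of all genes to 0.10, so the splits below hold without it unless given. Without it 43.2% of all genes lay above 0 and 56.8% below, and with it 59.4% lay above and 40.6% below. Cyclin E and A with Cdk2, which follow the D-type cyclins, had 4 of 5 genes below 0 and a median of −0.27. That median was −0.098 under median centring and −0.14 without REL replicate 1. Ccne1 and Ccne2 of this list are counted among the G1/S targets of E2F too. Cdk2 read 1280, 973 and 723 in WT while REL read 327 and 707, both REL arrays below WT (−0.98, SE 0.44, limma adjusted p = 0.613). Ccna2, the cyclin gene of S phase, was at −0.22 and Ccne2 at −0.64 (SE 0.48). For Ccna2 the other tested probe set pointed the other way.

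The E2F and DP transcription factors had 5 of 10 above 0 and a median of 0.03, which was −0.02 after quantile normalization and 0.20 with 7 above 0 under median centring. Leaving out 1 array at a time gave medians of −0.06 to 0.27 for them. The dimerization partner gene Tfdp1 was at 0.31 (SE 0.17), Tfdp2 at −1.75 (SE 1.00) and the repressor gene E2f8 at −0.46 (SE 0.28), whose other tested probe set pointed the other way. On REL replicate 2 Tfdp2 had a signal of 17.0, against 307 to 569 on the other 4 arrays. Pocket proteins and their DREAM complex partners had 5 of 10 above 0 and a median of 0.05 (Rb1 is counted here too), and 7 above 0 with a median of 0.22 under median centring. Their median ran from −0.04 to 0.11 with 1 array left out. Mybl2, a cell cycle transcription factor gene, had WT signals of 829, 786 and 832, against 476 and 429 in REL (−0.83, SE 0.36, limma adjusted p = 0.596). Rbl1, the gene for the pocket protein p107, was at 0.31 (SE 0.22), with 2 of its 3 tested probe sets above 0. Of the other CDK inhibitors 2 of 4 were tested: the phosphatase gene Cdkn3 at −0.50 (SE 0.19) and Cdkn2a at 0.05.

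Genes for the turnover and activation of G1 regulators had 7 of 15 above 0 and a median of −0.01, which median centring turned to 0.16 with 10 above 0. With 1 array left out it ran from −0.08 to 0.07. They included Fbxw7, whose product marks cyclin E for degradation, at 0.36 (SE 0.20), the ubiquitin ligase gene Cul4a at −0.75 (SE 0.45) and the kinase chaperone gene Cdc37 at −0.33 (SE 0.23). Regulators upstream of the members had 6 of 14 above 0 and a median of −0.03, which turned to 0.03 under quantile normalization and 0.14 under median centring, and ran from −0.08 to 0.04 with 1 array left out. Stat5a, a cytokine-activated factor gene, was at −0.57 (SE 0.27, limma adjusted p = 0.645), with both REL arrays below WT, and Irf4 was at −0.43 (SE 0.23), with its other tested probe set pointing the other way. The G1/S targets of E2F had 18 of 24 below 0 (75%, against 56.8% of all genes) and a median of −0.10. Under median centring 9 of 24 were below 0 (37.5%, against 40.6%) with a median of 0.06. Quantile normalization left 14 of 24 below 0 (58.3%, against 53.9% of all genes), with a median of −0.04. Without further scaling their median ran from −0.18 to −0.04 with 1 array left out. Both REL arrays were below WT for 5 of them, among them the primase gene Prim1 (−0.54, SE 0.20), the helicase subunit gene Mcm6 (−0.38, SE 0.17) and the chromatin assembly gene Chaf1b (−0.86, SE 0.40). The limma adjusted p of these 3 ran from 0.507 to 0.633.

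**Figure D4:**
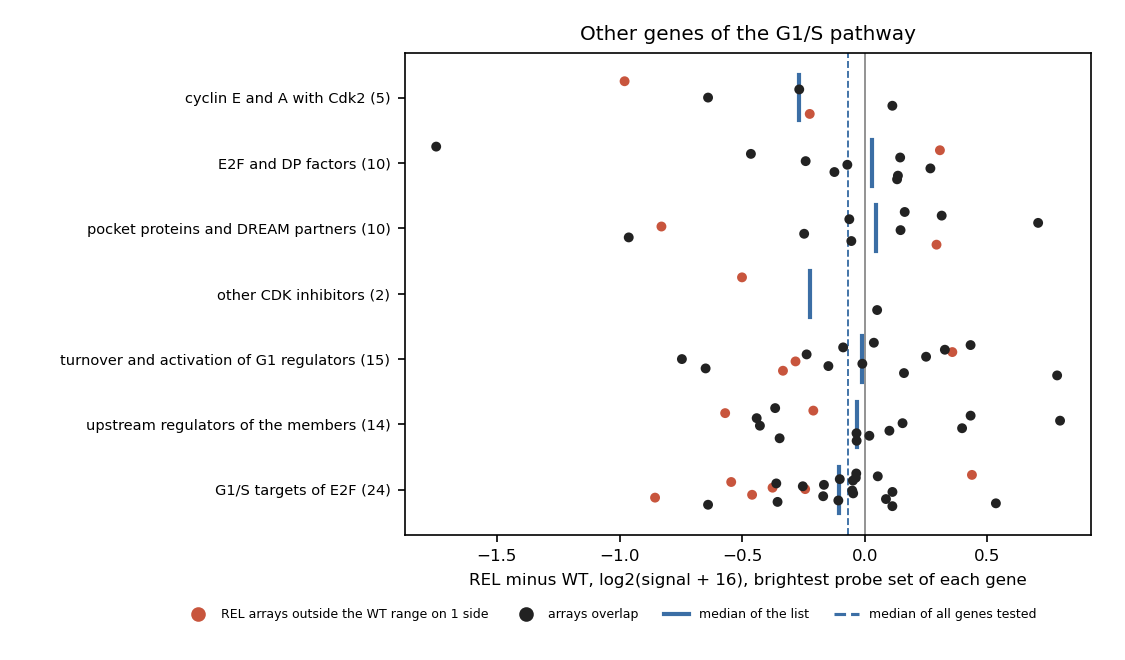
REL minus WT on the log2(signal + 16) scale for the brightest probe set of each tested gene in 7 lists (numbers of genes in parentheses); red points have both REL arrays outside the WT range on the same side, short blue lines are list medians and the dashed line is the median of all genes (−0.07). Without further scaling, medians run from −0.27 (cyclin E and A with Cdk2) to 0.05 (pocket proteins), and no gene passed the test.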

How the data were processed

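Signal intensities from MAS5, as deposited by the authors, came in 1 table for the 5 arrays, linear in scale, and the submitters' processing notes name MAS5 with no version number. Per the labels' protocols, sorted-cell RNA went through NuGEN Ovation amplification and biotin labelling. MAS5 subtracts mismatch signals array by array, which leaves dim probe sets noisy once logged.

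Genes were named from the platform annotation, and 10 of 10 members matched RefSeq through the Entrez identifier. Signals were used as log2(signal + 16) with no further normalization. Probe sets with 1 gene symbol were kept, control probe sets and the lowest 40% by mean (below a signal of 23.1) were left out, and the 22200 that remained were fitted in R 4.3.3 by limma 3.58.1 (lmFit on group alone, then eBayes with its variance trend; 3 residual and 6.63 prior degrees of freedom). Benjamini-Hochberg adjustment ran over all probe sets tested, and a call was a two-sided adjusted p under 0.05. The number of arrays limits the precision, with a median SD between arrays of 0.39 (WT) and 0.41 (REL) log2 units. The fit was first run on simulated signals with known changes. That run had to return the size of the larger known changes. The share of known changes that was called was recorded with no required level and is not given here.

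The members and lists were chosen with earlier results of these data known. All member probe sets were named, and of each pathway list the 3 genes with the smallest p of their brightest probe set. Neutrophil, plasma cell, stromal and erythroid markers, checked beside those in the report, had summed signals of 166 to 1341, 17813 to 20863, 233 to 361 and 73.6 to 207 in WT, and of 410 and 111, 17291 and 19118, 863 and 394, and 190 and 37.6 in REL. T cell markers summed to 4888 to 5440 in WT and 6534 and 5360 in REL. Most of that sum was Cd2 (4396 to 5233 in WT, 5725 and 5088 in REL). Most of the plasma cell sum was Jchain (11379 to 13129 in WT, 11600 and 12528 in REL). Among plasma cell markers, both REL arrays were below WT for Sdc1 and above WT for Xbp1. Alternatives tried were median centring, quantile normalization, pseudocounts of 1 and 64, a 60% filter and none, the brightest probe set of each gene, every probe set, no trend, the replicate number as a block, and each array left out in turn. Tables and plots used Python 3.11.15, pandas 2.3.3 and matplotlib 3.10.9.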

Additional observations from a re-analysis of the deposited data

How the results depend on the processing

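Of the 15 alternatives, each member probe set could be tested under 13 to 15, since stricter filters and the brightest probe set of each gene leave some out. None was called where it was tested, and 18 of the 24 kept their direction there. The filter, the choice of probe sets and the variance trend do not alter a difference. Those alternatives could therefore not turn a direction. The number called among all probe sets, 0, became 1 (Vcam1) under median centring and with the brightest probe set of each gene. With the replicate number as a block 5 were called (Mrpl33, Vcam1, Trim62, Zfp622 and Crisp3). Same-numbered WT and REL arrays did not deviate together (r = −0.02 and −0.0034 across probe sets). With 2 REL arrays, whose deviations from their mean mirror each other, this cannot tell whether same-numbered arrays were paired. The labels name no pairing. Under the replicate block Ccnd2 1416123_at turned to −0.089, the same as without WT replicate 3, which that fit cannot use. Under median centring Ccnd2 1455956_x_at turned to 0.11 and Cdk6 1435338_at to 0.086. Leaving out 1 array at a time, with a lone REL array assumed to vary like the other group, gave −0.12 to 0.32 for Ccnd2 1416122_at, −0.089 to 0.47 for 1416123_at, −1.21 to 0.59 for 1434745_at and −0.32 to 0.19 for 1455956_x_at. It gave −0.56 to 0.40 for Cdk6 1435338_at and −1.14 to 0.29 for Cdkn1a 1424638_at. The cause of these turns was not tested. Ccnd2 1430127_a_at ran from −2.84 to −2.03, Cdkn1b 1419497_at from 1.27 to 1.94 and Ccnd3 1438805_at from 1.47 to 3.06 over the 14 alternatives that tested each, with limma adjusted p of 0.154 to 0.708, 0.284 to 0.725 and 0.398 to 0.909. The median of the member probe sets ran from 0.01 to 0.19 when an array was left out and was −0.02 with the brightest probe set of each gene. Signals near the filter level limit what Ccnd1 1417420_at and Cdkn1a 1421679_a_at can show.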
